A study of Arabidopsis thaliana with 6 samples.

Results

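Transcript levels in the vip6 mutant were set against those in the vip5 mutant of Arabidopsis thaliana, to find which transcripts tell loss of the Ctr9 homologue from loss of the Rtf1 homologue. The comparison used 4 of the 6 arrays, 2 of vip6 and 2 of vip5, and every probe set on them that is not a control, which was 22746 of 22810. The other 2 arrays, of wild type plants, served as the background level. All groups were labelled as plants of 3 weeks from which total RNA was taken. The labels give the mutants as vip5 and vip6 with no allele, and name neither the strain, the tissue nor the growth conditions. They do not say whether the arrays of a genotype came from separate plantings, so every p-value here measures only the spread between these arrays. Within each genotype the arrays are numbered 1 and 2, and what the number marks is not given. Dim probe sets were set aside by asking for an intensity over the array's 40th percentile on 2 or more of the 6 arrays. This left 14323 to test, of which 7702 name a single gene.

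VIP5 and VIP6 are subunits of the plant Paf1 complex, which travels with RNA polymerase II along transcribed genes. In yeast, Ctr9 is a scaffold that holds the complex together, and Rtf1 is the subunit that promotes ubiquitination of histone H2B and, through it, methylation of histone H3. In Arabidopsis the complex is known for keeping the flowering repressor FLC and its relatives active, so that plants that lack a VERNALIZATION INDEPENDENCE gene flower early.

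The mutations themselves could not be read from the arrays, because 0 probe sets are paired with VIP5, VIP6, VIP4, VIP3, ELF7 or CDC73 in the annotation used. The deposited intensities had been brought to a common level, measured as the mean without the lowest and highest 2% of probe sets. The 18 bacterial and phage spike-in probe sets differed by number and between the mutants. All 18 were brighter on number 2 than on number 1 in each genotype, with a median ratio of 4.11 in vip5, 2.60 in vip6 and 1.81 in wild type. Within number 1 their vip6 to vip5 ratio had a median of 1.19 and exceeded 1 for 17 of 18, and within number 2 it had a median of 0.751 and lay below 1 for 17 of 18, and the part of these controls in the results was not tested. The leaf photosynthesis markers, 4 of 12 fixed genes, were bright on all arrays, with a summed intensity of 61950 and 113500 in vip5 (numbers 1 and 2), of 59290 and 103100 in vip6 and of 72210 and 94990 in wild type. The root marker PYK10, a beta-glucosidase of root endoplasmic reticulum bodies, was at 897 and 607 in vip5 against 717 and 869 in vip6, while the root hair expansins EXPA7 and EXPA18 and the anther regulators AMS and SPL were too dim to be tested. No probe set is paired with the fixed floral organ or seed markers. In RNA from plants of unstated tissue, fewer cells of a type and less RNA per cell cannot be told apart.

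The transcript profiles of vip5 and vip6 plants lay close together when arrays of the same number were compared. Between vip5 and vip6, 31 of 14323 tested probe sets (0.216%) were over 2-fold apart within number 1 and 53 (0.370%) within number 2. The arrays of a single genotype differed far more: 405 probe sets were over 2-fold apart between the vip5 arrays, 358 between the vip6 arrays and 310 between the wild type arrays. Across numbers, vip5 and vip6 were 340 and 472 probe sets apart, about as many as arrays of a single genotype. Wild type and a mutant of the same number were 312 to 497 apart. In log2 units, where 1 is a 2-fold difference, the standard deviation of the vip6 minus vip5 differences was 0.25 within number 1 and 0.28 within number 2, against 0.44 between the vip5 arrays and 0.42 between the vip6 arrays. The values are log2(intensity + 39.4), a scale that understates differences of dim probe sets.

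**Figure D1:**
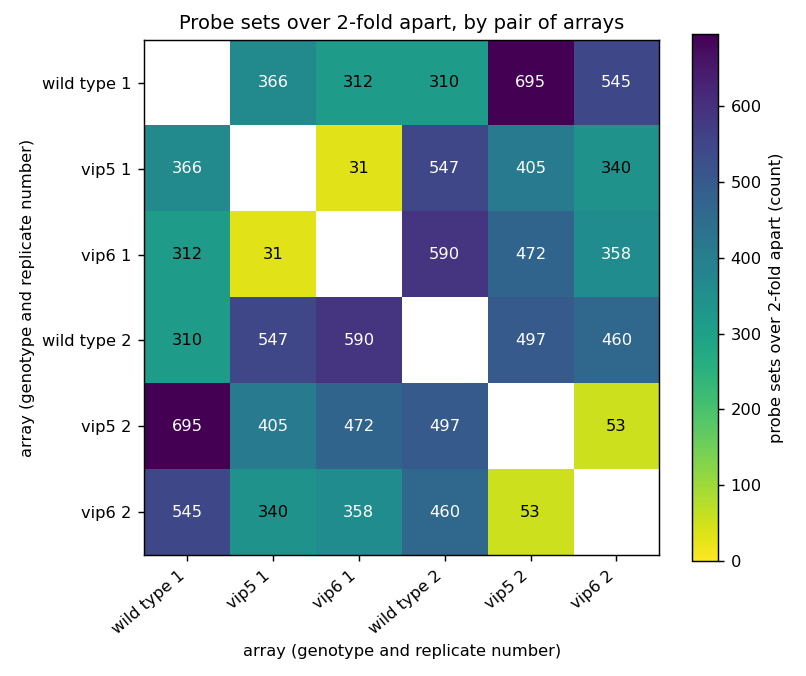
Number of the 14323 tested probe sets whose log2(intensity + 39.4) differed by over 2-fold, for each pair of the 6 arrays, with arrays in the same order on both axes. The vip5 and vip6 arrays of number 1 (31) and of number 2 (53) form the pairs with the fewest, and the other pairs hold 310 to 695.

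No transcript passed the test of vip6 against vip5 when the array number was left out of the model, and QQS passed when it was put in. In a limma fit without the number over all 6 arrays, 0 of 14323 probe sets (0%) had a Benjamini-Hochberg adjusted p at or under 0.05, and the smallest of these, 0.161, belonged to the starch-related gene QQS. The next was 1. With the number as a block 1 probe set passed, QQS (limma adjusted p = 0.0434), and in the 4 mutant arrays alone the same block gave 5, but with 2 numbers it is not established that arrays of a number belong together. At an unadjusted p under 0.05 there were 220 probe sets (1.54%), 109 higher (0.761%) and 111 lower (0.775%) in vip6, where evenly spread p-values would give 716. The same fit called 11 probe sets (0.0768%) for vip5 against wild type and 15 (0.105%) for vip6 against wild type.

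For most transcripts the interval of the difference was narrower than 2-fold in either direction. The 95% interval, which carries no correction for multiple testing, lay wholly within 2-fold for 13123 probe sets (91.6%) and within 1.5-fold for 4921 (34.4%). For 1200 probe sets it reached past 2-fold on at least 1 side. Of these, 1081 had an interval that also held 0. For them this fit, which leaves the number out, could set aside neither no difference nor a 2-fold difference. Brighter probe sets were better bounded: with probe sets in 3 classes of nearly equal size by mean intensity over the mutant arrays, the share within 2-fold was 88.4% in the dimmest, 92.6% in the middle and 93.9% in the brightest class. The interval lay wholly beyond 2-fold for 2 probe sets, QQS and 265522_at. Over all tested probe sets the median difference was -0.01 and the central 90% lay between -0.33 and 0.32.

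The arrays of number 1 and of number 2 give the vip6 minus vip5 difference from separate arrays, so their overlap shows how far a difference recurs. Few transcripts differed by over 2-fold within both numbers. There were 3 higher in vip6 (0.0209% of those tested) and 2 lower (0.014%), and 0 went opposite ways. At 1.5-fold there were 23 higher (0.161%) and 13 lower (0.0908%), with 19 going opposite ways. Past 3-fold QQS alone was left, lower in vip6 (0.00698%). Across the 14323 probe sets the differences of the 2 numbers correlated at r = 0.12 and had the same sign for 54.4%, as a description, since probe sets are not independent replicates. In the same measure vip5 minus wild type gave r = 0.36, with 115 probe sets over 2-fold the same way and 8 opposite ways, and vip6 minus wild type gave r = 0.36, with 92 and 2. These last comparisons share the wild type arrays.

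**Figure D2:**
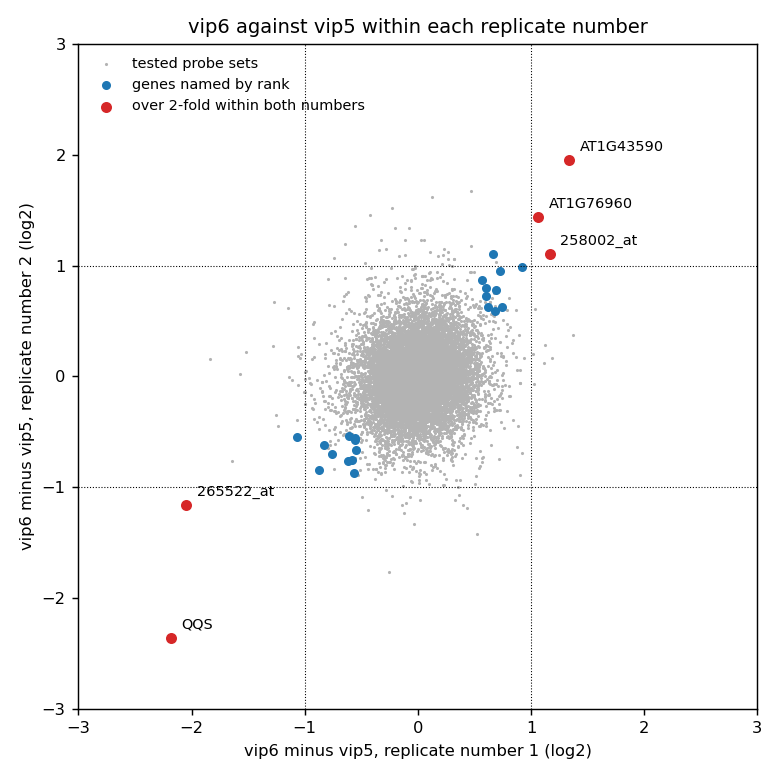
The log2 difference vip6 minus vip5 within number 1 (horizontal) and within number 2 (vertical) for each of the 14323 tested probe sets, with dotted lines at 2-fold. The cloud is nearly round (r = 0.12), and 5 probe sets, in red, lie past 2-fold the same way in both; blue marks the other genes named by rank.

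QQS (AT3G30720, QUA-QUINE STARCH), a gene found only in Arabidopsis thaliana and known for its effect on leaf starch, set the mutants furthest apart. Its intensity was 2255 and 2855 in vip5, 466 and 525 in vip6, and 344 and 241 in wild type (numbers 1 and 2). Both vip5 arrays lay above all others, and both vip6 arrays lay a little above both wild type arrays. The log2 difference, vip6 minus vip5, was -2.27 with a standard error of 0.23, a 95% interval of -2.80 to -1.75 and -2.18 and -2.36 within the numbers (limma adjusted p = 0.161, and 0.0434 with the number as a block). Against wild type QQS rose in vip5 by 2.98 on the log2 scale (limma adjusted p = 0.00749), while the 0.71 of vip6 did not pass (limma adjusted p = 0.359). QQS was already known from these arrays when it was singled out, so its values are a description.

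Of the other 4 transcripts over 2-fold apart within both numbers, AT1G43590, annotated as a pseudogene, was brighter in vip6 than in the other genotypes. It was at 193 and 145 in vip6 but at 52.4 and 8.40 in vip5 and 46.8 and 27.4 in wild type, so that both vip6 arrays exceeded the other 4, which lay near or below the pseudocount. The log2 difference was 1.64 with a standard error of 0.32 and a 95% interval of 0.90 to 2.39. It passed the filter on dim values only through its 2 vip6 arrays, so a higher level in vip6 was a condition of its being tested. As 1 vip5 array is near 0, this size rests on the pseudocount and was 2.39 with a pseudocount of 9.84 and 0.80 with one of 157.

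AT1G76960, a protein-coding gene, was lower in vip5 than elsewhere. Its intensity was 218 and 327 in vip5, 500 and 955 in vip6 and 746 and 707 in wild type. The vip5 arrays lay below all others, and the vip6 arrays lay on both sides of wild type. The log2 difference was 1.25 with a standard error of 0.31 and a 95% interval of 0.53 to 1.98.

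The probe set 258002_at, which is paired with no gene, also had both vip5 arrays lowest. It was at 63.1 and 35.5 in vip5, 190 and 121 in vip6 and 268 and 227 in wild type, so that the 3 genotypes did not overlap and vip6 lay between. The log2 difference was 1.13, with a 95% interval of 0.55 to 1.71. The probe set 265522_at, also paired with no gene, went the other way, at 295 and 242 in vip5, 41.5 and 86.5 in vip6 and 166 and 161 in wild type. Here wild type lay between the mutants, vip5 above it and vip6 below it, and the log2 difference was -1.60 with a 95% interval of -2.17 to -1.04. Of these 4 transcripts none passed the test without the number, with a limma adjusted p of 1 for each. With the number as a block, none passed over all 6 arrays (limma adjusted p 0.156 to 0.999). All 4 passed in the 4 mutant arrays alone (0.00286 to 0.0143), though the same arrays had singled them out.

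The genes named next were ranked by the smaller of their differences within the numbers, among probe sets of a single gene whose vip5 and vip6 arrays do not overlap. Such separation was common, with 1743 probe sets higher (12.2%) and 1916 lower (13.4%) in vip6, 25.5% in all, so it says little of any gene. The 12 highest ranks in each direction were taken. A gene given only by its locus has no product in the annotation used, so no role is stated for it. None of the 24 passed the test without the number, and apart from QQS each had a limma adjusted p of 1.

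Among the 12 genes higher in vip6, which include AT1G43590 and AT1G76960, the usual picture was a vip5 level below both wild type and vip6. AT5G63220 stood at 104 and 129 in vip5, 231 and 295 in vip6 and 250 and 282 in wild type, a log2 difference of 0.95 with a standard error of 0.20 and 0.92 and 0.99 within the numbers. PPR336 (AT1G61870) encodes a pentatricopeptide repeat protein, of a family that binds organelle RNA. It stood at 343 and 281 in vip5, 603 and 453 in vip6 and 427 and 622 in wild type, a log2 difference of 0.68 with a standard error of 0.24.

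AT1G13910 gave 86.3 and 64.2 in vip5, 151 and 141 in vip6 and 154 and 173 in wild type (0.70). AT3G50550 gave 93.1 and 65.2 in vip5, 175 and 141 in vip6 and 157 and 148 in wild type (0.74). In both the vip5 arrays lay below the other 4, whose values lay close to each other. AT2G28940 (0.84), AT2G15830 (0.89) and AT5G11550 (0.72) also had both vip5 arrays lowest. AT5G19130 (0.66) was higher on number 2 in each genotype, at 195 and 303 in vip5, 317 and 527 in vip6 and 233 and 436 in wild type. Its difference was 0.60 and 0.73 within the numbers, and its 95% interval without the number, -0.14 to 1.47, held 0.

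A pair of genes higher in vip6 had vip5 overlapping wild type instead. AT1G24530 was at 407 and 321 in vip5, 678 and 503 in vip6 and 425 and 299 in wild type (0.64), and AT4G02630 was at 661 and 601 in vip5, 1038 and 948 in vip6 and 937 and 629 in wild type (0.62). In each, both vip6 arrays lay above the other 4. The mean of wild type was nearer to vip6 than to vip5 for 9 of the 12 genes, against 52.8% of all tested probe sets.

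Among the 12 genes lower in vip6, QQS apart, the fitted differences were under 2-fold. AT3G02890 was at 275 and 215 in vip5, 133 and 102 in vip6 and 190 and 330 in wild type, a log2 difference of -0.86 with a standard error of 0.27. AT5G03660 was at 628 and 507 in vip5, 407 and 284 in vip6 and 732 and 835 in wild type (-0.67), and AT5G20030 was at 98.3 and 66.1 in vip5, 51.0 and 33.1 in vip6 and 126 and 112 in wild type (-0.57). For these genes the vip6 arrays were the lowest of the 6, and in the last pair vip5 lay between vip6 and wild type. AT5G20030 passed the filter on dim values only through its wild type arrays.

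AT3G09470 was at 478 and 590 in vip5, 311 and 305 in vip6 and 400 and 378 in wild type (-0.72). AT4G31030 was at 175 and 193 in vip5, 81.9 and 112 in vip6 and 128 and 144 in wild type (-0.72). AT4G38930 was at 540 and 613 in vip5, 355 and 400 in vip6 and 475 and 442 in wild type (-0.56). In these genes wild type lay between the mutants without overlap, vip5 above and vip6 below. The pseudogene AT4G09710 had the same direction with wild type overlapping vip5, at 115 and 147 in vip5, 51.6 and 75.2 in vip6 and 94.7 and 132 in wild type (-0.73).

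AT5G27750 was highest in vip5, at 261 and 146, with 104 and 88.1 in vip6 and 128 and 94.7 in wild type (-0.80, and -1.07 and -0.54 within the numbers). AT5G46730 (-0.55) and AT1G09500 (-0.60) had wild type arrays spread over both mutants. AT4G01290 (-0.69) had wild type arrays at 111 and 434, and its 95% interval of -1.86 to 0.48 held 0. The mean of wild type was nearer to vip5 for 7 of the 12 genes, against 6766 of all 14323 tested probe sets. Just inside the ranks lay AT5G11550 and AT5G20030, with a smaller difference of 0.57 and 0.54 in size, and just outside lay AT3G24820 and AT3G63510, with 0.56 and 0.54.

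**Figure D3:**
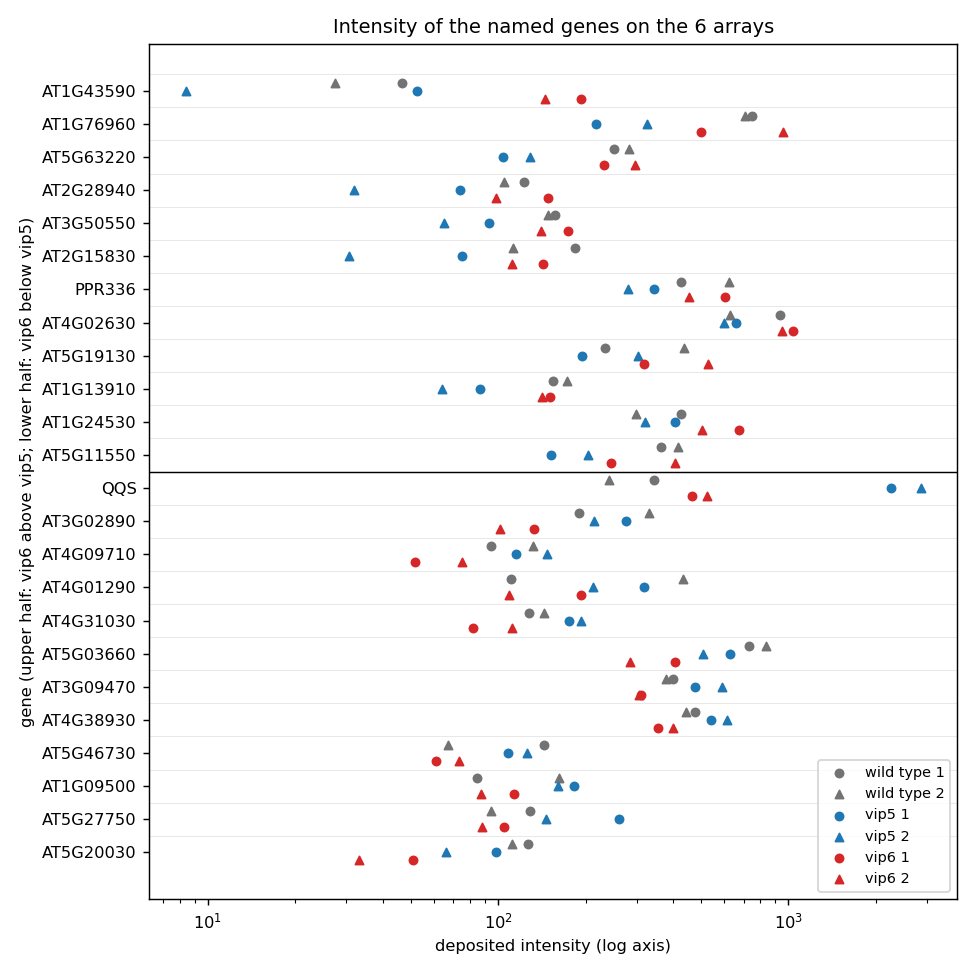
Deposited intensity (log axis) on each of the 6 arrays for the 24 genes named by rank, with grey for wild type, blue for vip5 and red for vip6, circles for number 1 and triangles for number 2. Above the line, for genes higher in vip6, the wild type mean is nearer to vip6 for 9 of 12, and below it, for genes lower in vip6, it is nearer to vip5 for 7 of 12. Of all 14323 tested probe sets it is nearer to vip6 for 7557 and to vip5 for 6766.

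Over all 36 probe sets past 1.5-fold the same way within both numbers, named or not, the mutant with the lower level was usually the one farther from wild type. Wild type was nearer to vip6 for 16 of the 23 higher in vip6, and nearer to vip5 for 12 of the 13 lower in vip6, where QQS was the exception. Over all tested probe sets the lower mutant was the farther one for 51.4%. Where the mutant arrays did not overlap it was so for 57.5% of those higher and 49.2% of those lower in vip6. At an unadjusted limma p under 0.05 these shares were 69.7% and 58.6%. The choice of probe sets by the mutant arrays enters these counts, and no test was made of them.

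Transcripts that the limma test called against wild type in either mutant differed less between the mutants than from wild type, QQS apart. There were 16 such probe sets, of which 9 name a single gene. The same mutant arrays chose them for a large difference from wild type. That choice favours a smaller difference between the mutants, so this is a description. Without QQS, the log2 difference vip6 minus vip5 ran from -0.38 to 0.19. The 95% interval lay within 2-fold for 14 of the 16 (87.5%, against 91.6% of all tested), and the exceptions were QQS and AT3G16670. These 14 include 3 that passed the filter on dim values only through their wild type arrays, so all their mutant arrays were dim. The vip5 and vip6 arrays did not overlap for 6 of the 16 (37.5%, against 25.5% of all tested). These shares do not set the 16 apart as closer between the mutants than other probe sets.

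AT5G56240 was at 1231 and 1237 in vip5, 1457 and 1180 in vip6 and 367 and 376 in wild type, a difference between the mutants of 0.09 with a 95% interval of -0.35 to 0.52. AT1G22480 was at 788 and 677 in vip5, 723 and 756 in vip6 and 224 and 228 in wild type (0.02, -0.40 to 0.43). AT1G02190 was at 419 and 649 in vip5, 478 and 639 in vip6 and 105 and 79.3 in wild type (0.08, -0.52 to 0.68). All 4 mutant arrays of each gene lay far above wild type, and those of vip5 and vip6 overlapped.

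The pseudogene AT1G20390 was likewise high in both, at 350 and 552 in vip5, 435 and 431 in vip6 and 68.6 and 85.5 in wild type (-0.02). AT4G21650 was low in both, at 316 and 349 in vip5, 353 and 372 in vip6 and 1362 and 1605 in wild type (0.11). AT3G16670 was at 249 and 210 in vip5, 232 and 118 in vip6 and 1001 and 1310 in wild type, a difference of -0.38 with an interval of -1.04 to 0.29. For AT2G19970 and PDF1.2b, which encodes a defensin induced by jasmonate with ethylene, both mutants lay below or near the pseudocount, which compresses any difference between them. Both genes passed the filter on dim values only through their wild type arrays. PDF1.2b was at 16.8 and 47.2 in vip5, 37.2 and 40.4 in vip6 and 858 and 418 in wild type, and its probe set is of the kind that shares probes with other sequences, so its signal may include a relative such as PDF1.2.

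**Figure D4:**
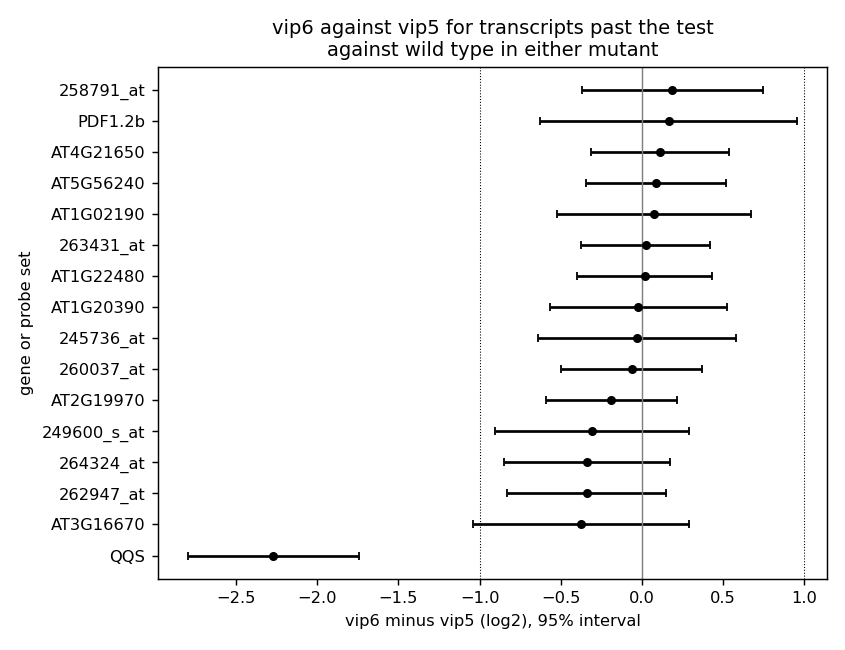
Log2 difference vip6 minus vip5 (points) with its unadjusted 95% interval (bars) for the 16 probe sets past a limma adjusted p of 0.05 against wild type in either mutant, with dotted lines at 2-fold. QQS lies at -2.27, the other 15 lie between -0.38 and 0.19, and the interval of AT3G16670 reaches -1.04.

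Gene lists that bear on the complex and on early flowering showed no member past the test between the mutants without the number in the model, and each list is given by its counts beside the separation seen in 12.2% and 13.4% of all probe sets. Of 30 flowering genes, 5 were tested and their median difference was -0.12, against -0.01 over all tested probe sets. FLC was not among the 5, so its level in the mutants was not compared. FY, the plant homologue of a yeast polyadenylation factor that represses FLC in the autonomous pathway, was at 322 and 365 in vip5, 230 and 254 in vip6 and 230 and 274 in wild type. Its vip5 arrays lay above the other 4, with a log2 difference of -0.44, a 95% interval of -0.87 to -0.01 and -0.42 and -0.46 within the numbers (limma adjusted p = 1).

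The other tested flowering genes overlapped between the mutants. AGL24, a MADS box promoter of flowering, was at 88.7 and 115 in vip5 against 107 and 76.2 in vip6, all below the 262 and 286 of wild type (-0.11 between the mutants). LD, of the autonomous pathway, differed by -0.12, SNZ, an AP2-like repressor, by -0.13 and AGL18, a MADS box repressor, by 0.23. Of 23 genes of the Paf1 complex, transcript elongation and H2B ubiquitination, 2 were tested. UBP26, which removes ubiquitin from histone H2B, was at 241 and 321 in vip5 against 244 and 305 in vip6 (-0.02), and AT5G08565 was at 183 and 193 in vip5 against 203 and 172 in vip6 (-0.01).

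Starch genes gave a measure of the pathway that QQS is known to affect. Of 31, 4 were tested, with a median of 0.07, 1 higher in vip6 and 0 lower. APL3, a large subunit of ADP-glucose pyrophosphorylase, was at 271 and 309 in vip5, 316 and 415 in vip6 and 403 and 484 in wild type (0.29). PWD, the phosphoglucan water dikinase of starch breakdown, was at 2391 and 444 in vip5, 2384 and 454 in vip6 and 1375 and 711 in wild type. Its mutant levels nearly matched within each number and lay far apart between numbers, which gave a difference of 0.01 with a 95% interval of -2.04 to 2.07. DPE1, the disproportionating enzyme, was at 909 and 393 in vip5 against 874 and 374 in vip6 (-0.06). The starch branching enzyme gene SBE2.2 overlapped too (0.13).

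GI, the sole clock gene tested of 19, was like PWD lower on number 2 in both mutants. It was at 1332 and 474 in vip5 against 1252 and 545 in vip6 (0.05). In wild type GI was higher on number 2, at 624 and 770, unlike PWD. Cold and dehydration genes were tested for 4 of 16, with a median of 0.17. COR47, a dehydrin, was at 2178 and 2149 in vip5, 2554 and 2422 in vip6 and 3620 and 3738 in wild type (0.20). Its vip6 arrays lay between vip5 and wild type without overlap. LTI30, another dehydrin, was at 303 and 211 in vip5 against 215 and 148 in vip6 (-0.42, and -0.43 and -0.42 within the numbers). Its mutant arrays overlapped across the numbers only. The mutant arrays of the chloroplast stroma proteins COR15A (0.14) and COR15B (0.27) overlapped too.

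Defence and secondary metabolism lists held few tested members. The jasmonate and ethylene markers PDF1.2 (0.09), PDF1.2b (0.16) and THI2.1, a thionin (-0.12), overlapped between the mutants, as did SAG101 (0.06), a lipase-like partner of EDS1 in salicylic acid defence. BCAT4, which starts the chain elongation of methionine for glucosinolates, was at 3339 and 3357 in vip5, 3230 and 3295 in vip6 and 6459 and 7714 in wild type. The mutant arrays did not overlap, yet the difference was -0.04 with a 95% interval of -0.46 to 0.39.

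Of the 5 flavonoid and anthocyanin genes tested, 1 was higher and 2 lower in vip6, with a median of -0.16. DFR, dihydroflavonol reductase, was at 371 and 330 in vip5 against 450 and 385 in vip6 (0.23). UF3GT, an anthocyanin glycosyltransferase, was at 122 and 128 in vip5 against 77.7 and 115 in vip6 (-0.29), and AT4G14090 was at 190 and 132 in vip5 against 128 and 122 in vip6 (-0.27). The flavonol glycosyltransferases UGT78D2 (0.05) and UGT78D1 (-0.16) overlapped.

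Larger families drawn from gene names had medians near 0. Of 15 expansin and XTH genes of cell wall loosening, 0 were higher and 2 lower, with a median of -0.06. EXPA20, an expansin, was at 132 and 117 in vip5 against 95.5 and 69.7 in vip6 (-0.43), and EXPA4 differed by -0.11. Of 11 cytochrome P450 genes, 1 was higher, CYP71B5 (0.16), with a median of 0.13. Of 19 UDP-glycosyltransferases, 2 were lower, UF3GT and the sterol glucosyltransferase SGT (-0.20), with a median of -0.04.

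Smaller families each gave at most 1 separated member. GSTF4, a glutathione transferase, was at 128 and 184 in vip5 against 124 and 113 in vip6 (-0.30). The lectin gene EULS3 differed by -0.16 and ILR3, a bHLH factor of the iron response, by -0.21. Hsp70-2, a heat shock chaperone, was at 579 and 745 in vip5, 863 and 804 in vip6 and 636 and 566 in wild type (0.32), with both vip6 arrays above the other 4.

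Overlap between the mutants was seen for the peroxidase AT5G64120 (-0.44), the defensin-like LCR66 (-0.41), the linker histone-like HON4 (-0.16), the auxin response repressor IAA18 (0.11), and the stress factors STZ (-0.25) and WRKY53 (0.16). Among the markers, RCA, Rubisco activase, differed by -0.28, PYK10 by 0.09 and the anther gene AT5G07230 by -0.10, also with overlap. Of 5 genes used as references in Arabidopsis, PEX4, a ubiquitin-conjugating enzyme, was at 1103 and 894 in vip5 against 866 and 662 in vip6 (-0.37), and the median of the 5 was -0.07.

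Pseudogenes and transposon-related genes gave 29 tested probe sets of 990. Of the 29, 4 had an unadjusted limma p under 0.05, against 220 of 14323 (1.54%) over all tested. AT1G43590, among the 4, was tested only because of its vip6 arrays. The others, AT4G09710, AT4G14610 and AT3G14800, passed the filter through several groups. No test was made of that count, so nothing is read from it. Of the 29, 2 were higher in vip6 and 4 lower, with a median of -0.02. AT4G14610, a transcribed pseudogene, was at 63.9 and 35.5 in vip5, 85.4 and 111 in vip6 and 116 and 91.7 in wild type (0.64). AT3G14800 was at 244 and 202 in vip5, 144 and 140 in vip6 and 225 and 166 in wild type (-0.53). With AT1G43590 and AT4G09710 these make up the 4, which were higher and lower in equal number. AT4G13120 (-0.31) and AT4G16870 (-0.12) were the other lower members, and each of the 6 had a limma adjusted p of 1.

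**Figure D5:**
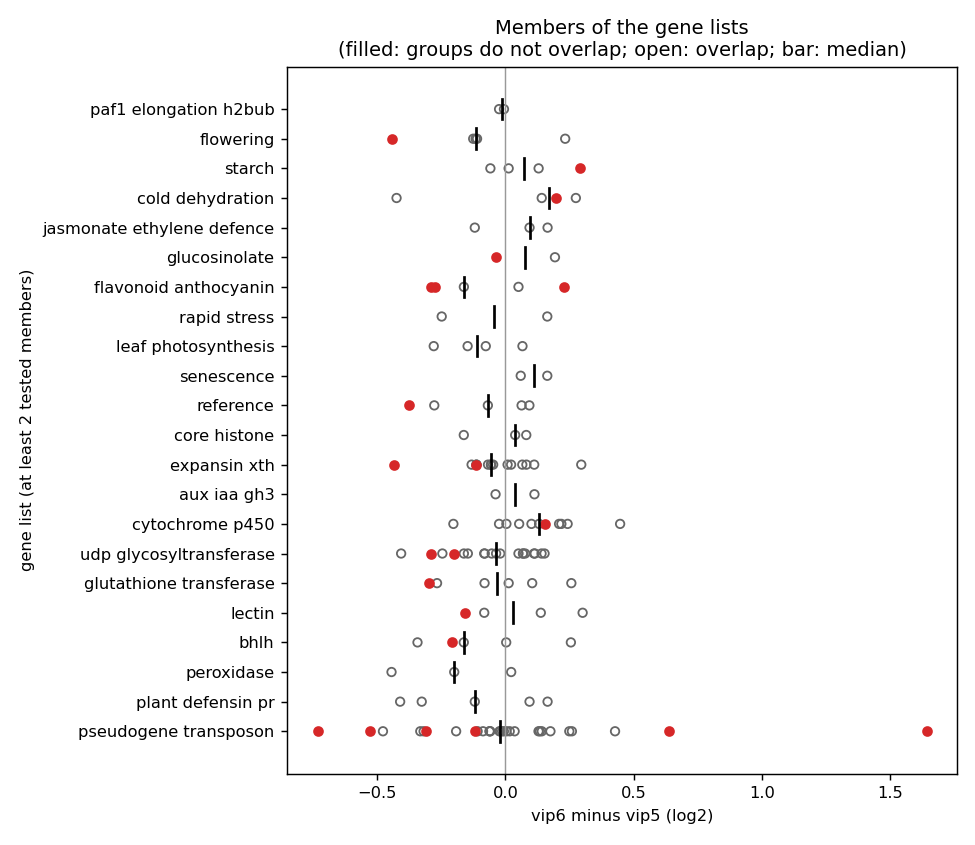
Log2 difference vip6 minus vip5 for each tested member of the gene lists with at least 2 tested members, filled where the vip5 and vip6 arrays did not overlap and open where they did, with a bar at the list's median. Medians lie between -0.20 and 0.17, FY is the filled flowering point at -0.44, and AT1G43590 is the pseudogene point at 1.64.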

How the data were processed

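Total RNA on 6 arrays was analysed from 1 table of intensity values per probe set, which the authors deposited on a linear scale. Its software, background values and detection calls are not given in the sources used here. From the values, the authors had scaled the arrays to a common trimmed mean, so no further normalization was made. The pseudocount, 39.4, is the middle value of the 6 arrays' 25th percentiles of intensity.

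After 64 control probe sets were left out, log2(intensity + 39.4) of 14323 probe sets was fitted with limma 3.58.1 in R 4.3.3 (lmFit, eBayes), with 3 group means over all 6 arrays, and 3 residual degrees of freedom among arrays. P-values are two-sided, adjusted by Benjamini-Hochberg over all 14323, with a threshold of 0.05. Differences within a number are single arrays subtracted and have no test. Figures used matplotlib 3.10.9.

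Genes were named through the platform's annotation, updated to the TAIR10.1 gene table, which gave names and neighbours only. Without controls, 13513 probe sets name 1 gene, 503 several and 8730 none. The rank rule took the 12 highest in each direction, and up to 3 members of each of 39 gene lists were named, 27 of which had a tested member. The comparison, the genes and the lists were chosen with earlier results of these arrays known, and 1 list pattern was corrected after it had matched unrelated names. The fit was checked on simulated data, drawn with no effect of the number. It called 22.5% of the 2-fold and 74.3% of the 4-fold differences put in, with 4 false calls on average. Most of the 2-fold differences put in were thus missed. The fit on the real arrays gave 220 unadjusted limma p-values under 0.05, where evenly spread ones would give 716, so these rates may not hold for it. Alternatives covered scaling, pseudocount, filter, variance model, arrays fitted, the number as a block and each array left out. The number of arrays limits the precision.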

Additional observations from a re-analysis of the deposited data

How the results depend on the processing

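With the replicate number as a block, the count of probe sets called by limma between vip6 and vip5 went from 0 to 1 over all 6 arrays and with a random block, where QQS had an adjusted p of 0.0434 and 0.0377, and stayed 0 with the block over all 6 arrays after quantile normalization (QQS 0.119). It went to 5 in the 4 mutant arrays alone, namely QQS (limma adjusted p = 2.91e-05), AT1G43590 (0.00286), 265522_at (0.00947), AT1G76960 (0.0111) and 258002_at (0.0143). The block leaves the QQS difference at -2.27. Deviations from the group means by number correlated at 0.66 between vip5 and vip6 but 0.31 for each mutant with wild type, and with 2 numbers this does not establish a pairing. Under every scaling, pseudocount, filter and variance alternative without the block the count stayed 0, as it did with each array left out. With the block it then ranged from 0 to 5, with 5 without either wild type array (QQS adjusted p = 2.76e-05 and 2.11e-05) and 0 without any of the mutant arrays (QQS adjusted p 0.0570 to 0.781). The 220 at an unadjusted p under 0.05 became 667 with no filter, 112 with the stricter filter, 511 with the block, 1196 with the block in the mutant arrays, 512 with the block and quantile normalization, and 426 with the random block. Leaving out an array gave 200 to 386, the highest without vip5 replicate 1, and 244 to 1191 with the block. The 91.6% of intervals within 2-fold became 73.7% to 78.0% without a mutant array, where the lone array is assumed to vary like the others, up to 91.0% without a wild type array, and up to 99.4% with the block. The share of intervals within 2-fold also moved with the pseudocount and the filter. It was 85.1% with a pseudocount of 9.84, 97.5% with one of 157 and 85.1% with no filter. The 5 over 2-fold within both numbers became 1 with a pseudocount 4 times as large, 11 with no filter (3 going opposite ways), 2 with the stricter filter, 36 at 1.5-fold and 1 at 3-fold. These counts need both arrays of a number, so no array could be left out. QQS ranged from -2.44 to -2.10 without an array, and from -2.51 to -2.03 with the block too. No ranked gene turned its direction, and 34 of 700 values of list members did, all with an array left out. They fell in 15 genes, whose ranges were -0.38 to 0.71 (PDF1.2b), -0.21 to 0.16 (UBP26), -0.66 to 0.76 (GI), -0.17 to 0.29 (SAG101), -0.24 to 0.42 (PYK10), -0.74 to 0.18 (RCA), -0.31 to 0.64 (WRKY53), -0.050 to 0.28 (IAA18), -0.78 to 0.29 (STZ), -0.33 to 0.12 (AT5G07230), -0.83 to 0.0074 (LCR66), -0.35 to 0.023 (HON4), -0.10 to 0.030 (BCAT4), -0.66 to 0.087 (UF3GT) and -0.32 to 0.088 (EXPA4). The block with an array left out was added after the data were seen. The cause of these changes was not tested, beyond the fewer probe sets or arrays that a setting itself leaves.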

Other observations

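Of the 20 genes on each side of QQS in the TAIR10.1 gene table, 34 are annotated as pseudogenes and 4 as protein coding. A probe set is paired with 4 of these 40 genes, and 0 of them were bright enough to be tested, so whether the neighbours of QQS differ between vip5 and vip6 was not measured.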
